A study of Homo sapiens with 7 samples.

Results

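Hypoxia response genes outside glycolysis are the genes that sense oxygen through the hypoxia-inducible factors (HIF) and the targets of these factors that do not belong to glycolysis. The set was defined by a list of 33 gene symbols, taken without a threshold on measured values, and 32 of them had a row among the 16527 rows of the authors' deposited table. ANGPTL4, a secreted regulator of lipoprotein lipase, was not analysed here except for the letters of its start region. The values came from bulk RNA sequencing of PC9, a long-established human cell line of lung adenocarcinoma with an activating mutation in EGFR. The 4 AXL knockout libraries came from 2 clones, each grown from a single sorted cell and sequenced as 2 libraries, and they were compared with 3 libraries of parental PC9 cells. AXL is a receptor tyrosine kinase, and the comparison asks how the transcriptome of PC9 cells differed when AXL was lost. All cells were grown in RPMI medium, per the labels, with no treatment, and the labels state no oxygen level. The design text and the sample titles name the clones differently, and no label says whether the libraries of a group were grown as separate cultures. The p-values therefore reflect only how much these libraries varied, which may be technical, and a difference that arose in a founding cell cannot be told apart from an effect of the knockout.

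The HIF factors are dimers of an oxygen-labile alpha subunit and a stable beta subunit. When oxygen is present, prolyl hydroxylases of the EGLN family mark the alpha subunit, the VHL ubiquitin ligase binds it, and the proteasome destroys it. When oxygen is scarce the alpha subunit persists, pairs with ARNT and binds hypoxia response elements near its targets, which cover angiogenic factors, mitophagy receptors, collagen-modifying enzymes, histone demethylases and the hydroxylases themselves. The pathway acts mainly through protein stability, and protein was not measured here.

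Bulk MARS-seq sequences short tags near the 3' ends of polyadenylated RNA, so levels were compared between groups and not between genes. Levels are given as normalized reads, that is, the reads of a gene in a library divided by the size factor of that library. The deposited table holds no reads per library, and these were recovered from its exact means, fold changes and standard errors. The recovered reads per library over 15496 genes numbered between 6407798 and 7139121 in knockout cells and between 6784167 and 7219759 in parental cells. The 4 knockout libraries are called a to d and the 3 parental libraries a to c by falling size factor, and no letter was matched to a clone or to a replicate number of the labels. AXL itself had 23.0, 15.0, 11.4 and 23.5 normalized reads in knockout libraries, against 1387, 1448 and 1415 in parental libraries, and its log2 fold change in the authors' deposited table was -6.28 ± 0.18 (SE). Of 8 markers of lung adenocarcinoma and epithelium, 2 were lower, 2 were higher and 4 were not called in knockout cells. Their log2 fold changes ran from -5.70 to 1.14 in the authors' deposited table. The 4 with recovered reads summed to 10095 to 10770 normalized reads in knockout libraries and 10832 to 11234 in parental libraries. The lineage markers NKX2-1 and NAPSA averaged 4.16 and 2.73 normalized reads over all libraries in the authors' deposited table. Of 9 markers of fibroblasts, endothelium and leukocytes, 5 had a row, and their sum was 2076 to 2306 normalized reads in knockout libraries and 893 to 985 in parental libraries. PECAM1 accounted for 1730.1 to 1808 of these reads in knockout libraries and for 335 to 364 in parental libraries. Transcripts of the mitochondrial genome were lower in knockout cells for 13 of 13 genes, with a median log2 fold change of -0.73. The part of these differences in the results below was not tested.

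In AXL knockout cells 21 of the 32 measured genes were lower, 1 was higher and 10 were not called, where a call is an adjusted p below 0.05 in the authors' deposited table. Among all 16522 genes tested, 18.5% were called lower and 19.5% higher, and 38.0% were called in either direction. Among the 10794 genes with a mean of at least 50 normalized reads, the shares were 22.7% lower, 26.0% higher and 48.7% in either direction. The median log2 fold change of the 32 genes was -0.31, against -0.01 over all genes tested, and 29 of the 32 fold changes were negative. The falls were mostly small, as they were among all genes called lower. The median absolute log2 fold change was 0.47 in the 21 genes and 0.49 in all genes called lower. At least 2-fold falls were seen in 5 genes (BNIP3, PLOD2, LOX, LOXL2 and DDIT4), whereas the other 16 fell by less. Of all genes, 4.64% were called with a fall of at least 2-fold. BHLHE40, a transcriptional repressor of the circadian clock and of the hypoxia response, was the gene that rose. In each of the 21 genes that fell, every knockout library lay below every parental library. This separation was also seen for KDM4B, which was not called, and 22.9% of the 15496 genes with recovered reads had it. In either direction the groups did not overlap in 23 of the 32 genes and in 46.5% of the 15496. In a bulk culture, fewer cells with a transcript and less of it per cell cannot be told apart.

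**Figure D1:**
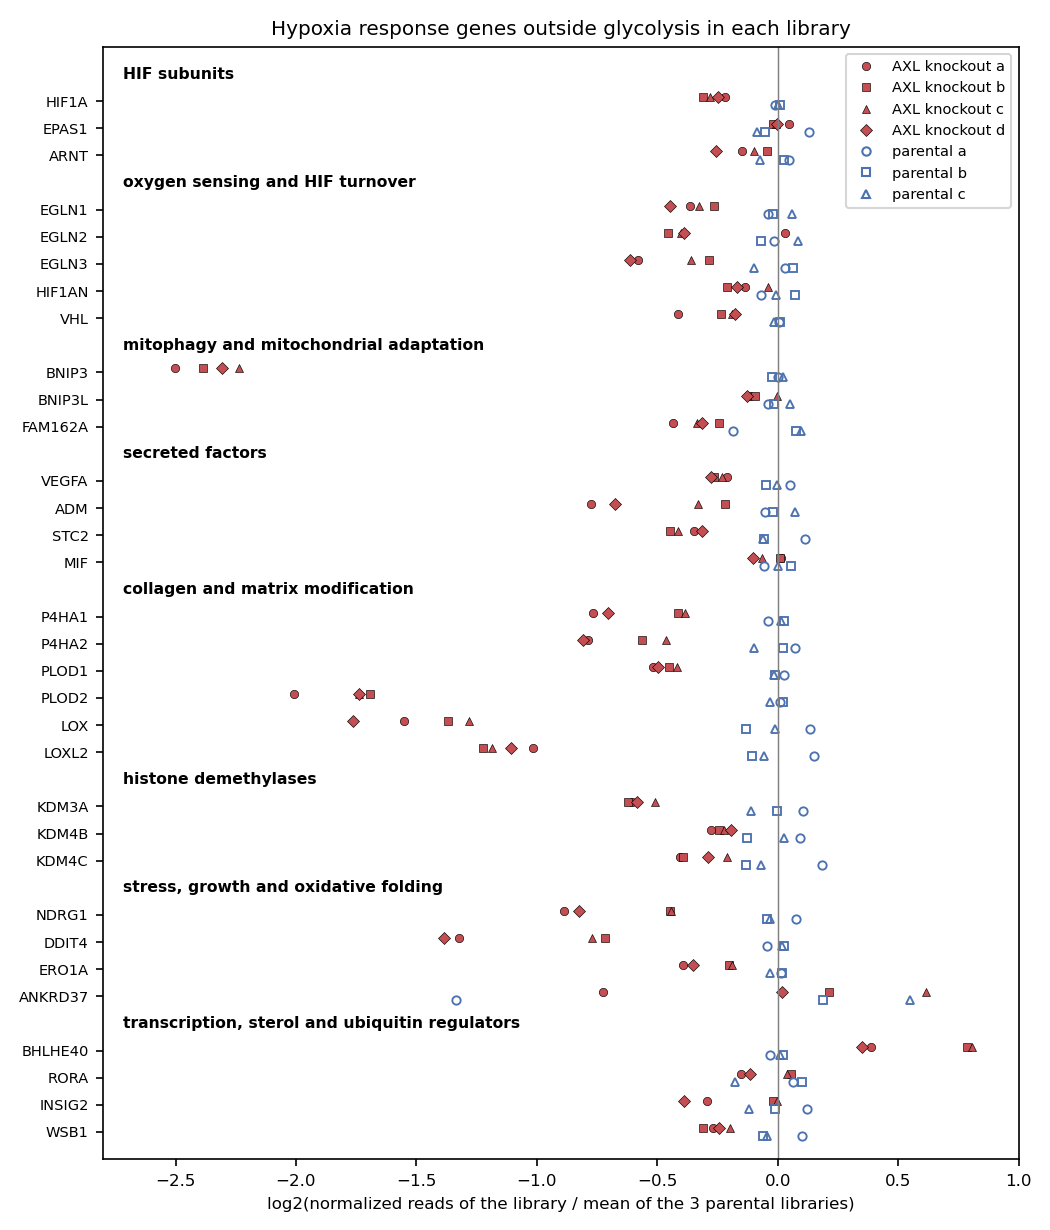
Level of each of the 32 measured genes in each library, as the log2 ratio of its normalized reads to the mean of the 3 parental libraries, grouped by role. Filled red symbols are the 4 AXL knockout libraries and open blue symbols the 3 parental libraries, with 1 symbol shape per library letter. The knockout symbols of 22 genes lie left of all parental symbols, BNIP3 farthest, and those of BHLHE40 lie right of them.

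Because most of these genes are known or supposed HIF targets, the start regions of the genes that moved most are shown, with the core letters of the hypoxia response element. The windows are those of RefSeq on GRCh38.p14, from 250 bases before to 50 bases after the start that RefSeq gives, written 5' to 3' on the strand of the gene. This start can differ from the outermost one in GENCODE 29: it lay within 1000 bases of it for 18 of 27 measured genes with a window and farther downstream for the other 9. Among the windows shown, the start lay 68224 bases downstream for P4HA2, well inside the GENCODE gene, 2469 bases downstream for PLOD2, and at most 321 bases downstream for the other 4. Capitals mark each match to ACGTG or GCGTG, read on both strands, so that CACGT and CACGC are matches too and CACGTG counts as 2 overlapping matches. The 6 windows belong to 5 of the 6 genes with the largest falls and to BHLHE40. They lie at chr10:131981874-131982173 (minus strand) for BNIP3, chr3:146161135-146161434 (minus) for PLOD2, chr5:122078210-122078509 (minus) for LOX, chr10:72273674-72273973 (plus) for DDIT4, chr5:132227042-132227341 (minus) for P4HA2 and chr3:4979187-4979486 (plus) for BHLHE40.
BNIP3: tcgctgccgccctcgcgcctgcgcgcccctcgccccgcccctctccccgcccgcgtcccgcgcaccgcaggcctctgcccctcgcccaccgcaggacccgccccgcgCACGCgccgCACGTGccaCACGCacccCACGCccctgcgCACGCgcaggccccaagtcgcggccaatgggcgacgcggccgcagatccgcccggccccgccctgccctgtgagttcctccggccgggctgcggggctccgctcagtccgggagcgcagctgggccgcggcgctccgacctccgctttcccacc
PLOD2: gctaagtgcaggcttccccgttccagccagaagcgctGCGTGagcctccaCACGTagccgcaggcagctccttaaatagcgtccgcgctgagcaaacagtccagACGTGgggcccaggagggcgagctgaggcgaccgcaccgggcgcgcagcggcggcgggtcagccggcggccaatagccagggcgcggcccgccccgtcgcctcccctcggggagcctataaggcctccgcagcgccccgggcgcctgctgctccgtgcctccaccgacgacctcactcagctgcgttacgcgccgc
LOX: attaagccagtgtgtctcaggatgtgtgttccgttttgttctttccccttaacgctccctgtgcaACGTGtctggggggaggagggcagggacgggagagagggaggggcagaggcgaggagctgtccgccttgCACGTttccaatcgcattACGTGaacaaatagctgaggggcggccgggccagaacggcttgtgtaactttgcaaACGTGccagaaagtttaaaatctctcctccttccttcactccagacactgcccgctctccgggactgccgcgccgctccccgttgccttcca
DDIT4: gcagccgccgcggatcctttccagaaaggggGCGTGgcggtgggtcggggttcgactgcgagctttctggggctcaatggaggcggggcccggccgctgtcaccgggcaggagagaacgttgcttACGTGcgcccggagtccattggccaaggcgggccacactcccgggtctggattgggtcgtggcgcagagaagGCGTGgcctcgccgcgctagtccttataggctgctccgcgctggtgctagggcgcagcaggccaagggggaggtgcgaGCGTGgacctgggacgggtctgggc
P4HA2: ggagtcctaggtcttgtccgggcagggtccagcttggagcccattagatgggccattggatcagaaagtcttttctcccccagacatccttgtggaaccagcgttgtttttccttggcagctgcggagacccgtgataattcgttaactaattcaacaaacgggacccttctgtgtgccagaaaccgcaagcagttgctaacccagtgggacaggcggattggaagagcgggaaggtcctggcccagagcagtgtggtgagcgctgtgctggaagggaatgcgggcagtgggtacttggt
BHLHE40: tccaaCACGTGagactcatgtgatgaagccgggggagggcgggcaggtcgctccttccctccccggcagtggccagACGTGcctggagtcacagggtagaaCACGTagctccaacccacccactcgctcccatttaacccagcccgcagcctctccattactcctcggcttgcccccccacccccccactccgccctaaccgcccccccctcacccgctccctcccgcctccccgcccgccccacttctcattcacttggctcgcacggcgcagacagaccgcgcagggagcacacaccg

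The BNIP3 window held 6 matches, which began between 143 and 104 bases before the start, and 80.7% of its bases were G or C. LOX, DDIT4 and BHLHE40 had 4 matches each, PLOD2 had 3 and P4HA2 had 0 in these windows, the outermost GENCODE start of P4HA2 not being covered by its window. The match of BHLHE40 farthest from its start, 245 bases before it, was the 6-letter palindrome, which the BNIP3 window also held. The RefSeq table had windows for 28 of the 33 listed genes, the window of ANGPTL4 included, and BNIP3L, LOXL2, NDRG1, VEGFA and VHL were not matched. A match was found in 23 of these 28 windows (82.1%), in 15 of the 17 windows of genes that fell (88.2%) and in 6 of the 9 windows of genes that were not called (66.7%). Among windows without a match, the start lay 6871 bases downstream of the outermost GENCODE start for HIF1AN, 68224 for P4HA2, 511700 for EGLN3 and 601789 for RORA. For ARNT, also without a match, it lay 169 bases downstream. The windows of EGLN1, EPAS1, KDM4C, PLOD2 and STC2, also more than 1000 bases downstream, held matches. For comparison, 48.4% of all 35116 windows of the table and 61.9% of the 12781 windows of genes with a mean of at least 50 normalized reads held a match. These comparison shares count every window, and a gene can have several, whereas each listed gene was counted by its first window only. The shares of the list and of all windows are therefore not on the same footing. With ACGTG alone the shares were 17 of 28 windows (60.7%), 21.4% of all windows and 26.0% of the windows of genes with that mean. With ACGTG alone, 10 of the 17 windows of genes that fell (58.8%) and 5 of the 9 windows of genes that were not called (55.6%) held a match, so the split between them was narrower. A match describes letters in a window, and the list was drawn from known targets of the factors, so these shares are a description of the list.

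Among the HIF subunits, the transcript of HIF1A was lower and those of EPAS1 and ARNT were not called. HIF1A encodes the alpha subunit that most cell types use. It had 5508, 5175, 5275 and 5405 normalized reads in knockout libraries and 6369.7, 6454 and 6420.3 in parental libraries. The groups did not overlap, and both were tight. Its log2 fold change in the authors' deposited table was -0.26 ± 0.04 (SE, adjusted p = 6.67e-09), so that knockout cells held 83.3% of the parental level. EPAS1, which encodes HIF-2alpha, had 4939, 4715, 4754 and 4776 normalized reads in knockout libraries, within the range of 5234, 4619 and 4504 in parental libraries. Its log2 fold change of 0.00 in the authors' deposited table had a 95% interval of -0.10 to 0.11. ARNT, the shared beta subunit, averaged 499 ± 30.7 normalized reads in knockout cells and 548 ± 24.6 in parental cells (SD, n = 4 and 3), with overlapping libraries and a log2 fold change of -0.14 ± 0.08 (SE, adjusted p = 0.191) in the authors' deposited table.

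Oxygen sensing and HIF turnover were represented by 5 genes, of which EGLN1, EGLN3 and VHL were lower. EGLN1 encodes PHD2, the main oxygen sensor among the prolyl hydroxylases, and EGLN3 encodes PHD3, itself a strongly hypoxia-induced gene in many cell types. EGLN3 had 446, 548, 521 and 437 normalized reads in knockout libraries and 682, 699 and 624 in parental libraries. Knockout libraries b and c were the higher of the 4 and still lay below the lowest parental library. In the authors' deposited table EGLN3 fell by 0.45 ± 0.09 on the log2 scale (SE, adjusted p = 1.84e-06). EGLN1 averaged 808 ± 42.6 normalized reads in knockout cells and 1029.7 ± 36.9 in parental cells (SD, n = 4 and 3), a fall of 0.35 ± 0.07 on the log2 scale (adjusted p = 1.46e-06) in the authors' deposited table. VHL, the substrate receptor that recognizes hydroxylated HIF alpha, had 603, 682, 705 and 709 normalized reads in knockout libraries and 806, 808 and 794 in parental libraries. The parental libraries differed little from each other, and the authors' deposited table gives a log2 fold change of -0.25 ± 0.07 (SE, adjusted p = 2.41e-03) for VHL. Neither EGLN2, which encodes PHD1, nor HIF1AN, the asparaginyl hydroxylase that limits transactivation by HIF alpha, was called. EGLN2 had 72.8 normalized reads in knockout library a and between 52.0 and 54.4 in the other knockout libraries, against 67.9 to 75.5 in parental libraries. Its log2 fold change in the authors' deposited table was -0.29 ± 0.20 (SE), with a 95% interval of -0.68 to 0.11. HIF1AN averaged 759.9 ± 38.4 normalized reads in knockout cells and 836 ± 41.7 in parental cells (SD, n = 4 and 3), and its adjusted p was 0.114 in the authors' deposited table and 0.0483 with limma on the recovered reads.

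The mitophagy receptors differed from each other. BNIP3 (ENSG00000176171, chr10:131966455-131982013 in GENCODE 29 on GRCh38, minus strand) encodes an outer mitochondrial membrane protein that recruits autophagosomes to mitochondria, and it had the largest fall of the 32 genes. It had 234, 253, 281 and 268 normalized reads in knockout libraries, against 1325, 1302 and 1345 in parental libraries. All 4 knockout libraries were low and lay close together, far from the parental libraries. The authors' deposited table gives a log2 fold change of -2.36 ± 0.08 (SE, 95% interval -2.51 to -2.20, adjusted p = 9.50e-197), which is 5.12-fold lower. BNIP3L, the related receptor also called NIX, had 607, 617, 657 and 601 normalized reads in knockout libraries and 640.0, 652 and 682 in parental libraries. These groups overlapped, and its log2 fold change in the authors' deposited table was -0.08 ± 0.07 (SE), with a 95% interval of -0.23 to 0.06. FAM162A, a mitochondrial protein linked to hypoxia-induced cell death, averaged 519 ± 28.2 normalized reads in knockout cells and 652 ± 68.8 in parental cells (SD, n = 4 and 3) and fell by 0.33 ± 0.08 on the log2 scale (adjusted p = 4.60e-04) in the authors' deposited table.

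GENCODE 29 names 39 processed copies of BNIP3, of which 2 had a row in the authors' deposited table. BNIP3P1 averaged 9.16 normalized reads with a log2 fold change of -3.96 ± 0.77 (SE, adjusted p = 2.04e-06), and BNIP3P11 averaged 4.90 with -1.68 ± 0.74 (SE, adjusted p = 0.0609), both from the authors' deposited table. How reads that fit several copies were counted is not given in the sources used here, so that the split between BNIP3 and its copies is uncertain. Most of the genes around BNIP3 on chromosome 10 were called lower, against 22.7% of all genes with a mean of at least 50 normalized reads. Of the 10 tested genes on each side with a mean of at least 50 normalized reads, 13 of 20 were called lower, 1 higher and 6 were not called, the median log2 fold change being -0.32, and 1 of the 20 had a fold change as low as that of BNIP3. The genes next to BNIP3 on each side, PPP2R2D and STK32C, named here after their values were seen, were not called, with log2 fold changes of 0.11 ± 0.09 and 0.00 ± 0.11 (SE) in the authors' deposited table. Farther away, ADAM12 was lower than BNIP3 itself at -2.69 ± 0.10, and ADAM8 was at -1.31 ± 0.08 on the same scale (SE). These 2 genes were also named after their values were seen.

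Of the 4 measured secreted factors, VEGFA, ADM and STC2 were lower and MIF was not called. VEGFA, the main angiogenic growth factor of the pathway, had 2447, 2353, 2408 and 2339 normalized reads in knockout libraries, against 2930.2, 2736 and 2826 in parental libraries. The groups did not overlap but were close, and its log2 fold change in the authors' deposited table was -0.25 ± 0.05 (SE, adjusted p = 4.37e-06), which leaves 84.3% of the parental level. ADM encodes adrenomedullin, a vasodilator peptide. It had 249.98, 367, 339 and 268 normalized reads in knockout libraries and 412, 422 and 449 in parental libraries. Knockout libraries a and d were well below b and c, which were in turn below all parental libraries. ADM fell by 0.48 ± 0.11 on the log2 scale (SE, adjusted p = 1.09e-04) in the authors' deposited table. STC2, a stanniocalcin glycoprotein, averaged 4443 ± 190.0 normalized reads in knockout cells and 5781 ± 411 in parental cells (SD, n = 4 and 3), a fall of 0.38 ± 0.06 on the log2 scale (adjusted p = 6.34e-11) in the authors' deposited table. MIF, an inflammatory cytokine, averaged 989.8 ± 39.0 normalized reads in knockout cells and 1015 ± 39.8 in parental cells (SD, n = 4 and 3), with a log2 fold change of -0.04 and a 95% interval of -0.16 to 0.09 in the authors' deposited table. The antisense gene MIF-AS1 averaged 35.4 normalized reads, and whether reads were counted by strand is not given in the sources used here.

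All 6 genes of collagen and matrix modification were lower, with a median log2 fold change of -0.89. PLOD2 (ENSG00000152952, chr3:146069440-146163653 in GENCODE 29, minus strand) encodes the lysyl hydroxylase that acts on collagen telopeptides and so sets the type of crosslink. It had 259.6, 323, 312 and 312 normalized reads in knockout libraries, against 1051, 1059 and 1022 in parental libraries. Library a was the lowest of the knockout libraries, and all 4 lay far below the parental ones. Its log2 fold change in the authors' deposited table was -1.79 ± 0.08 (SE, adjusted p = 3.69e-105), which is 3.46-fold lower. PLOD1, the lysyl hydroxylase of the collagen helix, had 897, 940.0, 961 and 912 normalized reads in knockout libraries and 1310.0, 1275 and 1272 in parental libraries. It fell by 0.47 ± 0.06 on the log2 scale (SE, adjusted p = 8.79e-14) in the authors' deposited table, and its 95% interval of -0.59 to -0.35 did not reach that of PLOD2, which ran from -1.95 to -1.63.

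LOX (ENSG00000113083, chr5:122063195-122078360 in GENCODE 29, minus strand) encodes the lysyl oxidase that starts the crosslinking of collagen and elastin outside the cell, and LOXL2 encodes a related oxidase. LOX had 76.6, 87.0, 92.4 and 66.1 normalized reads in knockout libraries, against 246, 205 and 222 in parental libraries. LOXL2 (ENSG00000134013, chr8:23297189-23425328 in GENCODE 29, minus strand) had 825, 713, 732 and 773 normalized reads in knockout libraries, against 1851, 1545 and 1601 in parental libraries. For both genes every knockout library was far below every parental library, and parental library a was the highest of all. In the authors' deposited table LOX fell by 1.48 ± 0.15 on the log2 scale (SE, adjusted p = 2.29e-22) and LOXL2 fell by 1.13 ± 0.07 (SE, adjusted p = 1.05e-50). SRFBP1, which overlaps LOX on the opposite strand, averaged 212 normalized reads with a log2 fold change of -0.08 ± 0.11 (SE) in the authors' deposited table. The alpha subunits of prolyl 4-hydroxylase, which stabilizes the collagen triple helix, are encoded by P4HA1 and P4HA2. P4HA1 had 616, 786, 802 and 642 normalized reads in knockout libraries and 1018, 1066 and 1057 in parental libraries. P4HA2 (ENSG00000072682, chr5:132191838-132295315 in GENCODE 29, minus strand) had 431, 504, 539.7 and 424 normalized reads in knockout libraries and 782, 756 and 695 in parental libraries. In both genes libraries a and d were the lowest, b and c lay between, and the parental libraries were highest. The falls were 0.56 ± 0.08 for P4HA1 (adjusted p = 5.38e-10) and 0.65 ± 0.09 for P4HA2 (adjusted p = 2.42e-12) on the log2 scale (SE) in the authors' deposited table.

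Of the 3 histone demethylases, which use oxygen to remove methyl groups from histone lysines, KDM3A and KDM4C were lower. KDM3A had 567, 561, 606 and 575 normalized reads in knockout libraries, against 928, 860.2 and 798 in parental libraries. The knockout libraries hardly differed from each other, and the authors' deposited table gives a fall of 0.58 ± 0.07 on the log2 scale (SE, adjusted p = 1.09e-13). KDM4C had 137, 138, 157 and 148 normalized reads in knockout libraries and 206, 165 and 173 in parental libraries. Library c of the knockout and library b of the parental cells lay close together, so the separation was narrow. In the authors' deposited table its log2 fold change was -0.33 ± 0.13 (SE, adjusted p = 0.0395), and it was no longer called in 5 of the 7 fits that left out 1 library, with a highest adjusted p of 0.290 without parental library a. The other fits that ended this call were those without knockout library a (adjusted p = 0.0940), knockout library b (0.0904), knockout library d (0.0521) and parental library c (0.0501). KDM4B was not called (adjusted p = 0.0606 in the authors' deposited table). It had 236, 241, 245 and 249.6 normalized reads in knockout libraries, all below 304, 262 and 291 in parental libraries, and it was called lower without parental library b (adjusted p = 0.0384), with limma on the recovered reads (adjusted p = 0.0163) and when only genes with a mean of at least 20 were adjusted for (adjusted p = 0.0495).

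Of the 4 genes of stress, growth and oxidative folding, DDIT4, NDRG1 and ERO1A were lower. DDIT4 (ENSG00000168209, chr10:72273920-72276036 in GENCODE 29, plus strand) encodes REDD1, an inhibitor of mTORC1 signalling. It had 578, 880.0, 848 and 554 normalized reads in knockout libraries, against 1401, 1473 and 1467 in parental libraries. The knockout libraries fell into a lower pair, a and d, and a higher pair, b and c, and the parental libraries lay close together above both. The spread in knockout cells gave the largest coefficient of variation among the genes that fell, 24.2% in knockout cells and 2.76% in parental cells. DDIT4 fell by 1.02 ± 0.21 on the log2 scale (SE, 95% interval -1.42 to -0.61, adjusted p = 4.84e-06) in the authors' deposited table. NDRG1 (ENSG00000104419, chr8:133237171-133302022 in GENCODE 29, minus strand), a stress-responsive gene used as a marker of hypoxia, had the same lower and higher pairs. It had 2742, 3721, 3724 and 2858 normalized reads in knockout libraries, against 5343, 4910.4 and 4952 in parental libraries, and the groups did not overlap. The authors' deposited table gives a fall of 0.64 ± 0.14 on the log2 scale (SE, adjusted p = 4.91e-05) for NDRG1. ERO1A, the oxidase that recharges protein disulfide isomerase in the endoplasmic reticulum, had 2351, 2682, 2707 and 2419 normalized reads in knockout libraries and 3116, 3129 and 3022 in parental libraries. It fell by 0.28 ± 0.06 on the log2 scale (SE, adjusted p = 6.29e-06) in the authors' deposited table. ANKRD37, an ankyrin-repeat gene known as a HIF target in other cells, had few reads. It had 5.75, 11.0, 14.5 and 9.60 normalized reads in knockout libraries and 3.76, 10.8 and 13.9 in parental libraries, and a difference was not detectable at this depth (log2 fold change 0.11 ± 0.53, SE, in the authors' deposited table).

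**Figure D2:**
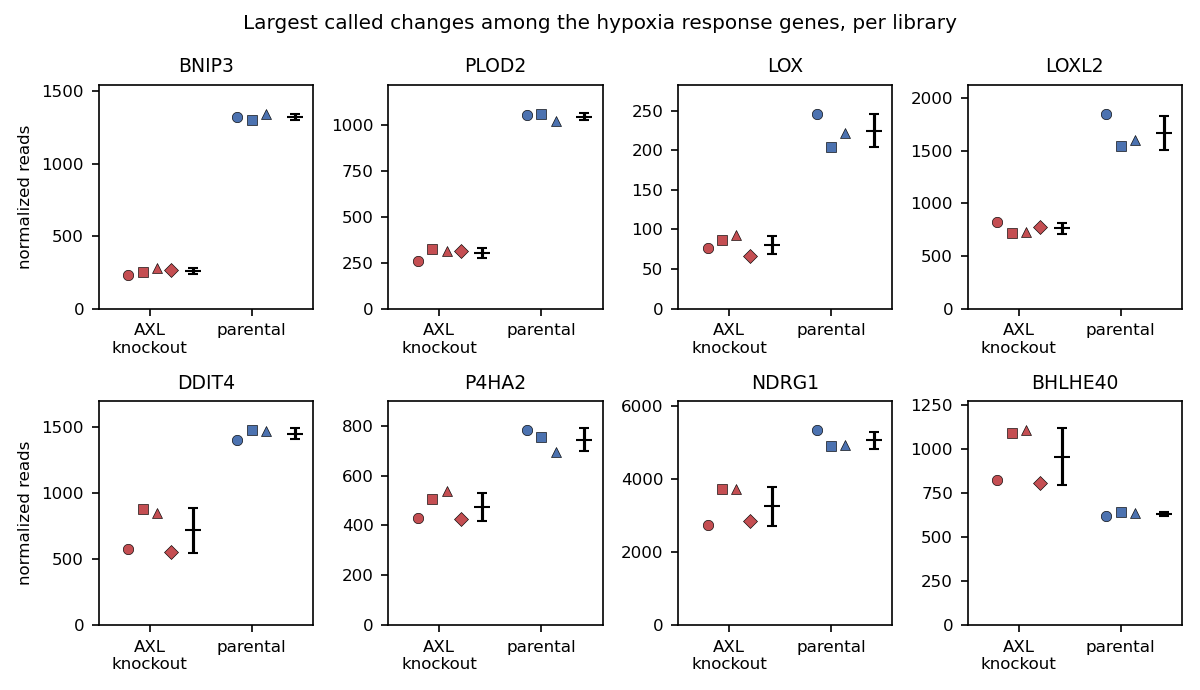
Normalized reads (vertical axis, from 0) of the 8 genes with the largest called changes, for the 4 AXL knockout libraries (red, left) and the 3 parental libraries (blue, right). Symbol shapes mark the library letters and black bars the mean ± SD. BNIP3 lies at 234 to 281 in knockout and 1302 to 1345 in parental libraries, whereas in DDIT4, NDRG1 and BHLHE40 knockout libraries a and d lie apart from b and c.

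The regulators of transcription, sterols and ubiquitination held the gene that rose. BHLHE40 (ENSG00000134107, chr3:4979116-4985323 in GENCODE 29, plus strand), also called DEC1, is induced by HIF in many cell types. It had 826, 1089, 1106 and 806 normalized reads in knockout libraries, against 618, 641 and 637 in parental libraries. All knockout libraries lay above all parental ones, with b and c the highest, and 23.6% of the genes with recovered reads were separated in this direction. Its log2 fold change in the authors' deposited table was 0.60 ± 0.10 (SE, 95% interval 0.40 to 0.79, adjusted p = 1.26e-08), which is 1.51-fold higher. The overlapping antisense gene BHLHE40-AS1 averaged 4.77 normalized reads with a log2 fold change of 2.97 ± 1.007 (SE, adjusted p = 0.0105) in the authors' deposited table. WSB1, a subunit of a ubiquitin ligase that targets VHL, had 445, 432, 467 and 452 normalized reads in knockout libraries and 575, 514 and 519 in parental libraries. It fell by 0.26 ± 0.08 on the log2 scale (SE, adjusted p = 6.21e-03) in the authors' deposited table, and without parental library a, the highest, its adjusted p was 0.0858. INSIG2, which retains the sterol sensor SCAP in the endoplasmic reticulum, had 521, 629, 636 and 487 normalized reads in knockout libraries, overlapping 694, 633 and 588 in parental libraries. Its log2 fold change in the authors' deposited table was -0.17 ± 0.09 (SE, adjusted p = 0.161). RORA, a nuclear receptor of the circadian clock, averaged 39.3 ± 2.86 normalized reads in knockout cells and 40.4 ± 4.10 in parental cells (SD, n = 4 and 3), and the 95% interval of its log2 fold change in the authors' deposited table ran from -0.53 to 0.44.

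The knockout libraries were not alike across the set. Libraries a and d were the lowest pair among the 4 in 16 of the 32 genes. Over 10068 genes with recovered reads and a mean of at least 50, a and d were the lowest pair in 27.6%. Libraries b and c were the lowest pair in 5 of the 32 genes, among them HIF1A and STC2, and in 26.5% of the 10068 genes. Each other pair was the lowest in 10.6% to 12.1% of the 10068 genes. The split of a and d from b and c was therefore also the most frequent over all these genes and is not particular to the set. Relative to the parental mean, the median log2 ratio over the 32 genes was -0.40 in knockout library a, -0.28 in b, -0.30 in c and -0.33 in d. The same median over the 10068 genes was between 0.00 and 0.01 in each knockout library. Of the 32 genes, 26 lay below all parental libraries in knockout library a, 25 in b, 25 in c and 28 in d. Of the 15496 genes with recovered reads, 37.6% did so in library a, 37.1% in b, 37.5% in c and 36.7% in d. The coefficient of variation between libraries was higher in knockout than in parental cells for 21 of the 32 genes, with medians of 6.82% in knockout cells and 4.85% in parental cells. The same comparison was not made over all genes, so this spread is not shown to be particular to the set. No library was matched to a clone, so a difference between the clones was not tested.

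**Figure D3:**
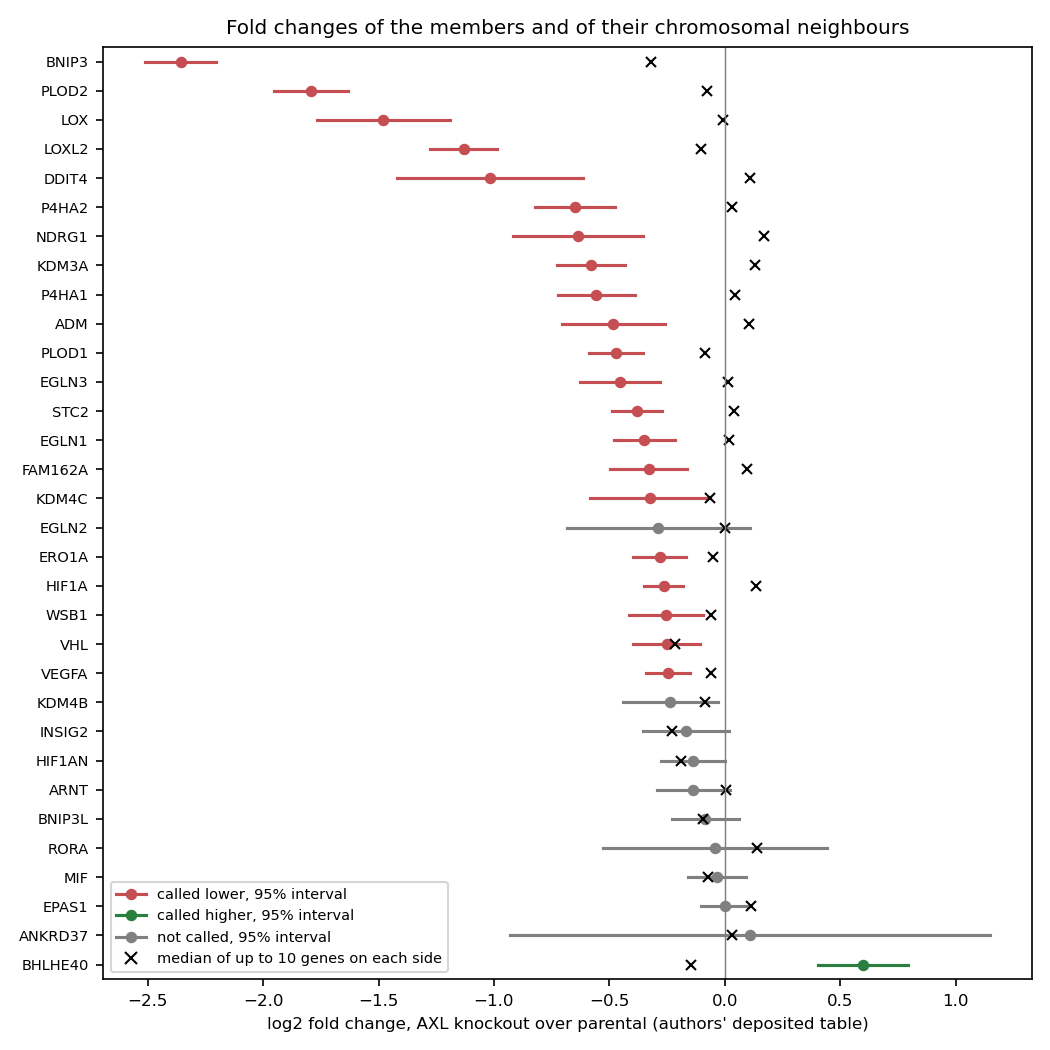
Log2 fold change of AXL knockout over parental cells for the 32 genes in the authors' deposited table (points, coloured by call) with 95% intervals, ordered from the lowest to the highest. Crosses give the median log2 fold change of up to 10 tested genes on each side on the chromosome. The points of BNIP3, PLOD2, LOX, LOXL2 and DDIT4 lie far below their crosses, whereas VHL at -0.25 lies beside its cross at -0.21.

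The fold changes of neighbouring genes were set beside those of the members. Of the 21 genes that fell, BNIP3 and VHL had neighbours with a median log2 fold change below -0.2. The medians over 20 neighbours were -0.08 for PLOD2, -0.01 for LOX, -0.10 for LOXL2, 0.11 for DDIT4, 0.17 for NDRG1 and 0.03 for P4HA2, and 0 of the 20 neighbours of each of PLOD2, LOX, DDIT4, NDRG1 and P4HA2 had a fold change as low as the member. For LOXL2 this was 2 of 20, and 6 of its neighbours were called lower and 0 higher in the authors' deposited table. For PLOD2 the median was -0.32 over 5 genes and -0.27 over 20 genes on each side. The log2 fold change of VHL, -0.25, stood beside a median of -0.21 for its neighbours on chromosome 3. Of these 20 neighbours, 11 were called lower and 8 were as low as VHL. Other genes that fell also had such neighbours: 6 of 20 were as low as ERO1A and 5 of 20 as low as WSB1. This was 4 of 20 for P4HA1 and for KDM4C, 3 of 20 for VEGFA, and between 0 and 2 for each remaining gene that fell. INSIG2 and HIF1AN, neither of them called, had neighbours with medians of -0.23 and -0.19. The 15 neighbours of BHLHE40, which lies near the end of chromosome 3, had a median of -0.15, with 7 called lower and 7 higher, and 7 of them had a fold change at least as high as that of BHLHE40. Over the 5 genes on each side the median was 1.40, above the 0.60 of BHLHE40 itself. The part of these neighbourhoods in the results for BNIP3, VHL and BHLHE40 was not tested.

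Hypoxia-induced genes outside the set gave a mixed picture. Beside them, 22.7% of all genes with a mean of at least 50 normalized reads were called lower and 26.0% higher. Of 20 glycolytic targets of the pathway, 17 were lower and 1 was higher in the authors' deposited table, with a median log2 fold change of -0.37. The glucose metabolism genes PFKFB3 (-0.996 ± 0.067), HK2 (-0.71 ± 0.06) and PGK1 (-0.55 ± 0.04) and the lactate exporter SLC16A3 (-0.61 ± 0.05) had the smallest p-values of that list, all given as log2 fold changes (SE) from the authors' deposited table. Of 36 other hypoxia-induced genes with a row, 18 were lower and 13 higher, with a median of -0.22. Fold changes in that list ran from -9.40 to 1.012 on the log2 scale, the lowest being that of CA12, a carbonic anhydrase named here after its value was seen. CA9, a carbonic anhydrase widely used as a hypoxia marker, averaged 221 ± 8.77 normalized reads in knockout cells and 525 ± 36.7 in parental cells (SD, n = 4 and 3), a log2 fold change of -1.25 ± 0.10 (SE) in the authors' deposited table. PLAUR, the urokinase receptor, and GBE1, the glycogen branching enzyme, each had a log2 fold change of -0.99 (SE 0.07 for both), and CAV1, which forms caveolae, had -0.65 ± 0.05 in the authors' deposited table.

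Genes that act beside the members in the same processes were called in both directions. For comparison, 22.7% of all genes with a mean of at least 50 normalized reads were called lower and 26.0% higher. Of 15 other collagen-modifying enzymes and chaperones with a row, 5 were lower and 5 higher (33.3% each) in the authors' deposited table. Their median log2 fold change was -0.02. Among the members of that role, 6 of 6 were lower. The collagen chaperone SERPINH1 (-0.63 ± 0.05) and the prolyl 3-hydroxylase P3H2 (-0.74 ± 0.09) fell, whereas CRTAP (1.06 ± 0.07) and P3H4 (0.49 ± 0.06), partners in prolyl 3-hydroxylation and lysyl hydroxylation, rose, all as log2 fold changes (SE) from the authors' deposited table. Of 15 other mitophagy genes, 3 were lower and 5 higher (median 0.03). PINK1, the kinase of the ubiquitin-dependent branch, was higher (0.42 ± 0.10), as was TAX1BP1 (0.24 ± 0.05), and the autophagy genes MAP1LC3B (-0.39 ± 0.09) and SQSTM1 (-0.25 ± 0.05) were lower on the log2 scale (SE) in the authors' deposited table. Of 17 other JmjC demethylases and relatives, 2 were lower (11.8%) and 3 higher (17.6%), with a median of -0.01. RIOX2 was at -0.63 ± 0.07, KDM2B at 0.66 ± 0.08, KDM7A at 0.90 ± 0.22 and PHF2 at 0.34 ± 0.09 on the log2 scale (SE) in the authors' deposited table. Of 21 other regulators of the HIF pathway, 6 were lower (28.6%) and 5 higher (23.8%), with a median of 0.03. The chaperones of HIF1A, HSP90AA1 and HSP90AB1, were lower at -0.81 ± 0.04 and -0.43 ± 0.04, the ubiquitin ligase SIAH2, which targets EGLN proteins, was lower at -0.49 ± 0.07, and the transmembrane prolyl hydroxylase P4HTM was higher at 0.68 ± 0.10 on the log2 scale (SE) in the authors' deposited table.

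**Figure D4:**
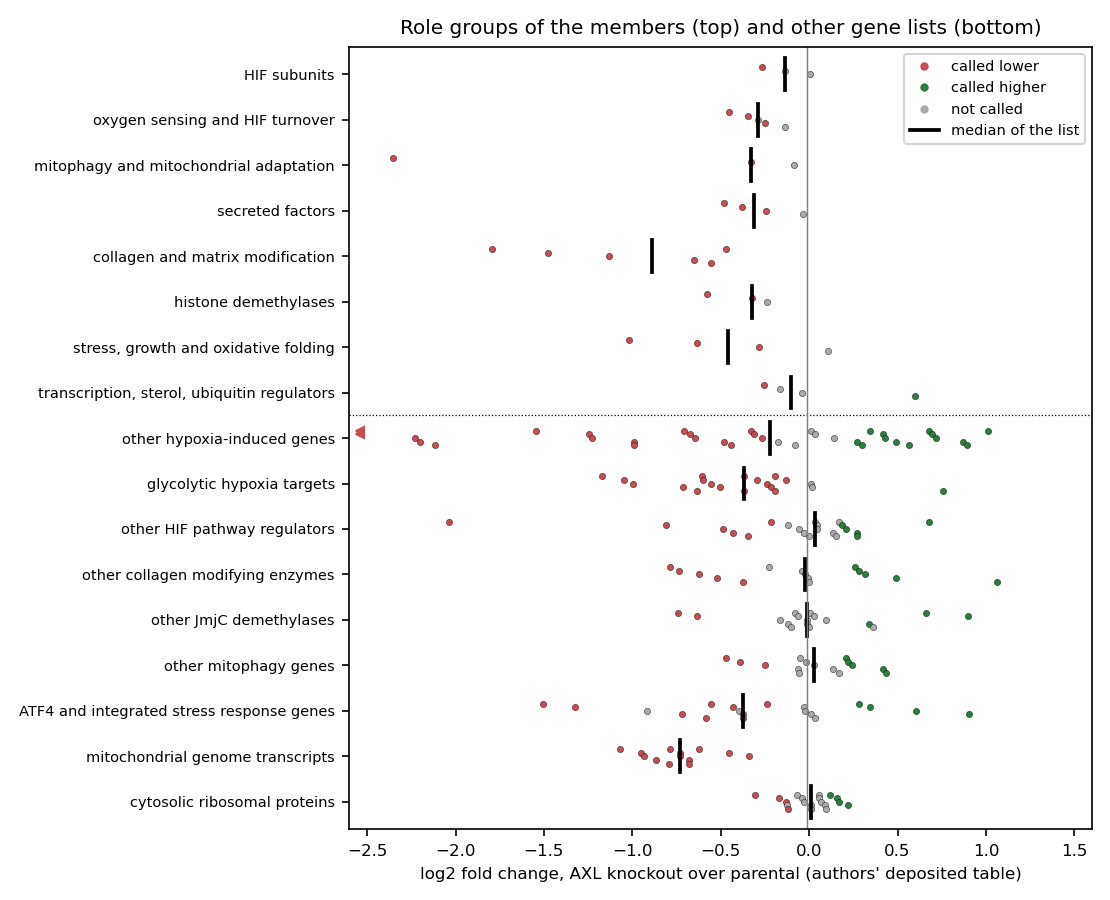
Distribution of the log2 fold change of AXL knockout over parental cells in the authors' deposited table for each gene of the 8 role groups (above the dotted line) and of the 9 other lists (below it), with the median of each list as a black bar and the median of all genes tested as a grey line. Red points were called lower, green higher and grey not called, and 2 genes beyond the left edge are drawn as arrows. All 6 points of collagen and matrix modification are red, whereas the other collagen-modifying enzymes spread to both sides of the grey line.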

How the data were processed

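RNA of 7 PC9 libraries was barcoded by poly-T reverse transcription, made into bulk MARS-seq libraries and sequenced on a NextSeq 500, per the labels' protocols. Which aligner, build and annotation were used, and whether counting used strand or molecular identifiers, is not given in the sources used here. The submitters' processing notes list DESeq2 with no version number. The authors deposited 1 row per gene with these columns, per the file headers: a signal (normalized counts averaged over libraries), the log2 fold change and its standard error, the Wald statistic as a score, and the p-value, raw and adjusted. Their adjusted p under 0.05 over all 16522 tested genes is the test reported here, and 95% intervals come from their standard errors.

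Whole reads per library were recovered from these values. Each of the 52 distinct means above 0 and below 0.6 could be written as whole reads times 7 steps, with 1 step for each library, which give the size factors. Of 126 ways to set the steps on 2 sides, that with 4 steps on the positive and 3 on the negative side gave the printed fold changes of 38 of 40 low genes and any other way those of 0. The labels give 4 knockout and 3 parental libraries, so positive fold changes are higher in knockout cells. For each gene the whole reads were then searched that give the printed mean to its last digit and, in the fit of the authors' tool at the dispersion that gives the printed standard error, the printed fold change within 1e-12. This gave a single solution for 15496 genes and for all 32 members, and the size factors computed again from these reads differed by at most 0.111%. Genes with means above 3000 (8000 for listed genes) were not searched. The tests were checked on simulated data. The recovery was checked on simulated reads of genes with means below 3000 only. That check does not cover HIF1A, EPAS1, STC2 and NDRG1, whose means lie above 3000.

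The members and gene lists were chosen with earlier results of these data known. Every member is named, of each other list the up to 4 called genes with the smallest p, and AXL. Symbols matched 16428 of 16527 identifiers, and positions are those of GENCODE 29. Alternatives were stricter thresholds, a 2-fold minimum, a test against 0.5, a mean of at least 20, a t distribution with 5 degrees of freedom, centring, and leaving out each library with the authors' dispersion kept. Limma 3.58.1 in R 4.3.3, on log2(normalized reads + 0.5) of genes with a mean of at least 10, was added after the data were seen. Python 3.11.15 with numpy 2.4.6 and scipy 1.17.1 was used.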

Additional observations from a re-analysis of the deposited data

Results flagged for a closer look

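In 2 of the 32 measured genes, knockout library a stood apart from the other 3 knockout libraries by Dixon's gap test, which chance alone flags in about 1 in 20 groups. EGLN2 had 72.8 normalized reads in that library, against 52.0, 54.0 and 54.4 in the other knockout libraries, and this library alone lay within the parental range of 67.9 to 75.5. PLOD2 had 259.6 normalized reads in that library, against 323, 312 and 312 in the others, so the library that stood apart was the lowest. Without it PLOD2 was still called lower, and its log2 fold change lay between -1.83 and -1.72 over the 7 fits that left out 1 library. EGLN2 was not called in any of these 7 fits.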

How the results depend on the processing

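The count of 21 lower members and 1 higher member became 20 and 1 at an adjusted p under 0.01, 22 and 1 among genes with a mean of at least 20, 17 and 1 with a t distribution, 21 and 1 after centring, and 23 and 1 with limma, which called 3095 lower and 3347 higher genes among 12530. Over all genes the calls, 3053 lower and 3228 higher, became 2378 and 2572 at 0.01, 2759 and 3092 of 12153 with that mean, 1614 and 1862 with the t distribution, and 3135 and 3155 after centring. With a 2-fold minimum 5 members were lower and 0 higher, and when the absolute log2 change was tested against 0.5 the counts were 4 and 0, against 767 lower and 734 higher genes over all for the 2-fold minimum and 622 and 678 for the test against 0.5. Leaving out each library gave 19 to 22 lower and 1 higher members, with a median log2 fold change of the members between -0.32 and -0.29. Over all genes these fits gave 2297 to 2584 lower and 2562 to 2832 higher. They tested only 15475 to 15494 genes with recovered reads, against 16522 in the authors' test, so these counts do not differ by the library alone. Members with a fold change near 0 changed sign: EPAS1 was at -0.0035 after centring and between -0.039 and 0.072 without single libraries, ANKRD37 between -0.28 and 0.49, and RORA between -0.12 and 0.0086. With the t distribution VHL, FAM162A, KDM4C and WSB1 were no longer called, and KDM4C was also lost at 0.01. The cause of these changes was not tested. At 9.91 normalized reads, depth limits ANKRD37. No paired analysis was possible because the recovered libraries carry no replicate numbers. Another normalization and count tool were not run.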

Other observations

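Of 19 genes of the ATF4 and integrated stress response with a row, 9 were lower (47.4%) and 4 higher (21.1%) in knockout cells in the authors' deposited table. Their median log2 fold change was -0.37 over all 19 and -0.14 over the 16 with a mean of at least 20. Of all genes with a mean of at least 50 normalized reads, 22.7% were called lower and 26.0% higher. SLC7A11, the cystine transporter, averaged 987 ± 49.98 normalized reads in knockout cells and 1626 ± 119 in parental cells (SD, n = 4 and 3), and SLC7A5, a neutral amino acid transporter, averaged 5499 ± 111 in knockout cells and 7113 ± 100.2 in parental cells. CEBPB, a stress-responsive transcription factor, averaged 7378 ± 178 normalized reads in knockout cells and 3945 ± 272 in parental cells, and PHGDH, the entry enzyme of serine synthesis, averaged 2368 ± 84.9 in knockout cells and 1558 ± 26.6 in parental cells. In the authors' deposited table the log2 fold changes (SE) were -0.72 ± 0.07, -0.37 ± 0.04, 0.90 ± 0.05 and 0.60 ± 0.05 for these 4 genes in that order. Of 19 cytosolic ribosomal protein genes, 4 were lower and 4 higher (21.1% each), with a median of 0.01. RPL32 was at -0.31 ± 0.05, RPS19 at 0.22 ± 0.04, RPS18 at 0.17 ± 0.05 and RPS6 at 0.16 ± 0.05 on the log2 scale (SE) in the authors' deposited table. The mitochondrial transcripts with the smallest p-values were MT-ND6 at -1.07 ± 0.06, MT-ND5 at -0.95 ± 0.05, MT-ND1 at -0.93 ± 0.05 and MT-CO1 at -0.87 ± 0.06 on the same scale in the authors' deposited table.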
